A study of Sus scrofa with 12 samples.

Results

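Matrix metalloproteinases (MMPs) are zinc-dependent enzymes that cut the proteins of the extracellular matrix, and tissue inhibitors of metalloproteinases (TIMPs) bind and block them. The genes were taken by symbol from the table of coding genes: MMP2, MMP9, MMP11, MMP14, MMP15, TIMP1, TIMP2, TIMP3 and TIMP4. These 9 genes are among the 21674 genes of that table. MMP2 and MMP9 are the gelatinases, which cut denatured collagen and the type IV collagen of basement membranes. MMP14 and MMP15 are anchored in the cell membrane, and MMP14 together with TIMP2 activates the proenzyme of MMP2. In the testis, the basement membrane and the peritubular wall of the seminiferous tubules are substrates of such enzymes.

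Testes came from Hezuo (HZ) boars, an early-maturing Chinese breed, and from Landrace (LC) boars. HZ boars were sampled at 30 days of age (Ha) and 120 days (Hb), and LC boars at 30 days (La) and 120 days (Lb), with 3 boars and 3 libraries in each of the 4 groups. The libraries held estimated counts that summed over coding genes to 22538417 to 23758931 in Ha, 17165519 to 22707568 in Hb, 18523274 to 23563949 in La and 18998959 to 23253496 in Lb. Levels of a gene across libraries are given as CPM, the count per 1e6 counts after TMM scaling over the 12 libraries, and levels of different genes as FPKM, which is per transcript length. Groups were tested on the counts with the quasi-likelihood test of edgeR. A gene was called at an adjusted p below 0.05 and an absolute log2 fold change above 1, with the second-named group over the first. An exact permutation test of 3 libraries against 3 cannot give a p below 0.1, so adjusted p values rest on the variance model fitted across genes. Hb replicate 1 stood apart from the other Hb libraries in Leydig cell markers. In whole testis, fewer cells of a type and less RNA per cell cannot be told apart.

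TIMP2 had the highest FPKM of the 9 genes in each group, with means of 966 ± 34.7 in Ha, 239 ± 37.5 in Hb, 658 ± 26.3 in La and 298 ± 47.5 in Lb (SD, n = 3). TIMP3 came next, with an FPKM of 102 ± 7.28 in Ha and 43.4 ± 4.23 in Lb. In Ha the order then ran through MMP2 at 52.6 ± 12.3, MMP14 at 26.1 ± 0.499, MMP15 at 21.2 ± 7.76, MMP11 at 20.5 ± 3.1 and TIMP1 at 12.2 ± 2.09 FPKM. The levels of MMP15 and MMP11 did not differ beyond their spread in Ha, and MMP14 lay within the spread of MMP15. TIMP4 at 0.527 ± 0.119 and MMP9 at 0.227 ± 0.137 FPKM were the lowest. The 4 TIMPs summed to 1081 ± 40.7 FPKM in Ha, 278 ± 31.4 in Hb, 775 ± 12.6 in La and 347 ± 43.7 in Lb. The 5 MMPs summed to 121 ± 7.29, 23.5 ± 3.28, 143 ± 9.37 and 43.7 ± 10.1 FPKM in the same order. Among the MMPs the largest share of summed FPKM was that of MMP2 in the younger boars (43.3 ± 7.47% in Ha and 46.2 ± 3.22% in La) and that of MMP14 in the older boars (59.4 ± 9.26% in Hb and 54.2 ± 4.03% in Lb). These shares of the MMPs were computed after the values were seen.

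Comparing ages within HZ boars (Ha vs Hb) asks what changes as the testis of this breed matures. There, 7 of the 9 genes fell from 30 to 120 days, and the genes that were not called were MMP9 and MMP14. Of the 16548 coding genes tested, 23.2% were called lower in Hb and 28.2% higher. In LC boars (La vs Lb), 5 of the 9 genes fell, namely MMP2, MMP11, TIMP1, TIMP2 and TIMP4 (6 without TMM factors and 7 with upper-quartile factors), against 20.1% of 16637 genes called lower and 27.5% called higher. The median log2 fold change of the 9 genes was -2.04 with age in HZ boars and -1.22 in LC boars, beside -0.02 and 0.01 for all genes tested. Scaling by library size without TMM moved the median of all genes to -0.32 with age in HZ boars and -0.16 in LC boars. With it the share of lower genes among those called in Ha vs Hb went from 45.2% to 55.9%, and with upper-quartile factors that share in La vs Lb went from 42.3% to 52.9%.

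Comparing breeds at one age gave fewer calls. At 30 days (Ha vs La), MMP11 was higher and MMP15 lower in LC boars, 2 of the 9 genes, where 3.60% of 15648 genes were called higher in La and 4.01% lower. At 120 days (Hb vs Lb), MMP2 was called higher in LC boars, 1 of 8 genes tested, since MMP9 did not pass the filter on low counts. Of the 16311 genes tested there, 2.65% were called higher in Lb and 1.20% lower. Whether the change with age differed between the breeds was tested as the interaction of breed and age over the 12 libraries. MMP15 was called, 1 of 9 genes, where 3.51% of 17332 genes had a called interaction above 0 and 1.62% below 0. Without TMM factors the share below 0 among called interactions went from 31.6% to 18.4%. The comparisons share libraries, so their values are given side by side.

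**Figure D1:**
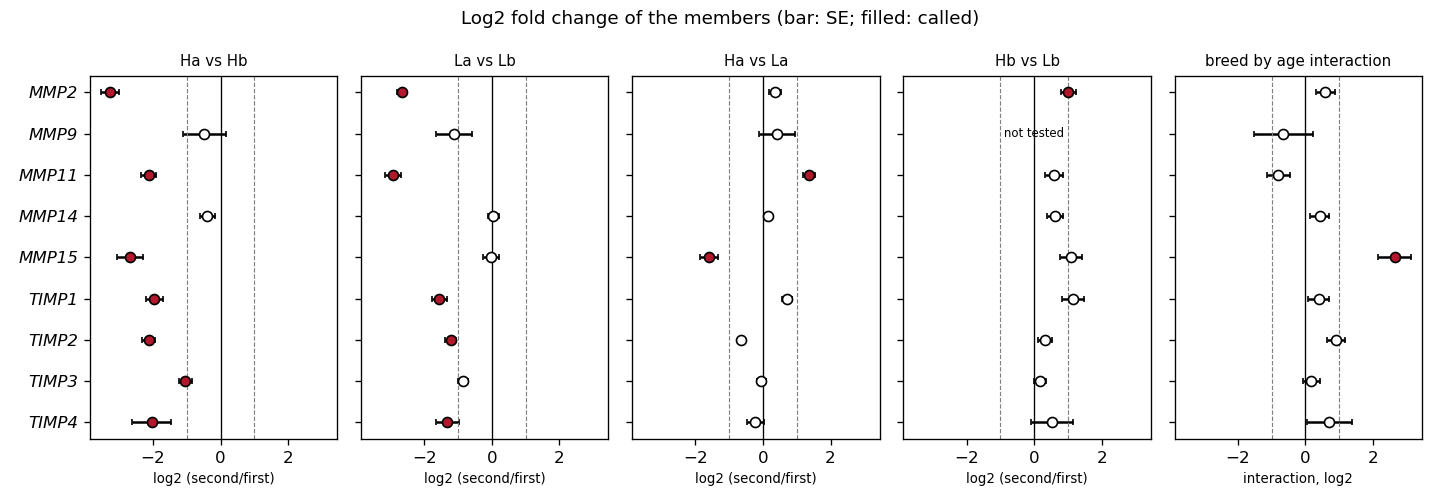
Log2 fold change of the 9 genes (second group over first, x axis) in each pairwise comparison, and the log2 interaction in the panel at the right. Points are edgeR estimates, bars are SE, filled points were called and dashed lines mark a log2 value of -1 and 1; MMP15 is the filled point in the interaction panel.

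MMP2 cuts gelatin and type IV collagen. Its CPM was 182, 152 and 242 in Ha, 24.6, 19.8 and 14.6 in Hb, 282, 218 and 242 in La and 33.8, 39.5 and 41.8 in Lb. Libraries of 30-day-old boars lay far above those of 120-day-old boars in both breeds, with no overlap between the ages. MMP2 fell by a log2 fold change of -3.28 (SE 0.26, edgeR adjusted p = 3.88e-05) with age in HZ boars and -2.67 (SE 0.14, edgeR adjusted p = 1.05e-06) in LC boars. The Ha and La libraries overlapped, and the log2 fold change there was 0.36 (SE 0.17, edgeR adjusted p = 0.163). At 120 days each Lb library lay above each Hb library, and MMP2 was called higher in Lb with 1.01 (SE 0.22, edgeR adjusted p = 0.0422). That call was at the edge of both thresholds. It was lost with the replicate number as a block (log2 1.03), under DESeq2 (log2 0.99), under limma on log2(FPKM + 1) (log2 0.97) and with all 12 libraries in one fit (log2 0.96). It was also lost without Hb replicate 3 (log2 0.84), Lb replicate 1 (1.10), Lb replicate 3 (0.93) or Lb replicate 2 (edgeR adjusted p = 0.126). Over its alternatives the adjusted p ranged from 0.000823 to 0.136. The interaction of MMP2 was 0.59 (SE 0.29, edgeR adjusted p = 0.235), so a difference between the breeds in its fall with age was not called.

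MMP9, the other gelatinase, is stored in the granules of neutrophils. It had few reads, with estimated counts of 6, 17 and 25 in Ha, 8, 13 and 4 in Hb, 21, 21 and 15 in La and 4, 14 and 6 in Lb. In counts and in FPKM each La library lay above each Lb library, while in CPM the groups of each comparison overlapped, and edgeR called no difference. The log2 fold change was -0.48 (SE 0.63, edgeR adjusted p = 0.519) with age in HZ boars and -1.11 (SE 0.53, edgeR adjusted p = 0.0921) in LC boars. MMP9 in La vs Lb was called with upper-quartile factors (log2 -1.37) and without Lb replicate 2 (log2 -1.75). The 4 neutrophil markers S100A8, S100A9, S100A12 and CSF3R summed to 8.31, 5.33 and 30.7 in Ha, 0.23, 2.97 and 0.45 in Hb, 16.3, 22.7 and 10.4 in La and 1.28, 2.38 and 0.26 in Lb FPKM. S100A8 had the highest mean of them in each group, and Ha replicate 3 had the highest sum and the highest MMP9 count. In CPM and FPKM MMP9 was highest in La replicate 2, with 1.055 and 0.38, against 0.9707 and 0.35 in Ha replicate 3. The part of neutrophils in the MMP9 values was not tested.

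MMP11, also called stromelysin 3, is made mainly by stromal cells. Its CPM was 89.1, 87.4 and 120.4 in Ha, 16.7, 22.9 and 28.1 in Hb, 283, 282 and 196 in La and 23.7, 34.1 and 41.1 in Lb. The La libraries were the highest, each above each Ha library, and the 120-day-old groups overlapped at low values. MMP11 fell by a log2 fold change of -2.13 (SE 0.23, edgeR adjusted p = 0.000161) with age in HZ boars and -2.92 (SE 0.24, edgeR adjusted p = 1.16e-05) in LC boars. At 30 days it was higher in LC boars, with 1.36 (SE 0.18, edgeR adjusted p = 0.00279). In Hb vs Lb the value was 0.59 (SE 0.27, edgeR adjusted p = 0.222), and the interaction was -0.81 (SE 0.34, edgeR adjusted p = 0.172). The call at 30 days was lost under limma on log2(FPKM + 1), with a log2 difference of 0.98. On FPKM, with means of 20.5 ± 3.1 in Ha, 3.05 ± 1.07 in Hb, 41.5 ± 4.74 in La and 5.94 ± 1.68 in Lb, the interaction was -0.20 under limma with 1 added and -0.05 with 0.1 added. Ha vs Hb was -2.77 with 0.1 added.

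Count and FPKM gave different sizes for MMP11 and TIMP2, which have 6 and 4 RefSeq transcripts and estimated counts that are not all whole. The count divided by FPKM, scaled by the median of that quotient over 8377 genes in the library and set to a mean of 1 over the 12 libraries, is a relative transcript length. It was computed after the values were seen. For TIMP2 it was 1.23, 1.25 and 1.19 in Ha, 0.79, 0.81 and 0.79 in Hb, 1.10, 1.14 and 1.15 in La and 0.87, 0.87 and 0.81 in Lb. Each library of 30-day-old boars had a longer relative length of TIMP2 than each library of 120-day-old boars. For MMP11 it was 0.88, 0.94 and 0.97 in Ha, 1.18, 0.92 and 1.06 in Hb, 1.25, 1.17 and 1.03 in La and 0.84, 0.84 and 0.90 in Lb, with the highest mean in La and the lowest in Lb, and overlap between Ha and Hb. The highest value over the lowest was 1.59 for TIMP2 and 1.49 for MMP11, and 1.54% and 2.04% of those genes had one as large. MMP2, MMP14, TIMP1 and TIMP3 kept the same relative length in each library to 2 decimals. A mix of transcripts that differs between groups was not tested, since the table gives values per gene.

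MMP14, or MT1-MMP, cuts fibrillar collagen at the cell surface. Its CPM was 113, 115 and 112 in Ha, 73.3, 69.7 and 118 in Hb, 128, 121 and 129.5 in La and 129.7, 104 and 153 in Lb. The Ha libraries lay close together, Hb replicate 3 lay above them and the other Hb libraries below, and Lb spread around La. The log2 fold change was -0.39 (SE 0.21, edgeR adjusted p = 0.137) with age in HZ boars and 0.05 (SE 0.15, edgeR adjusted p = 0.781) in LC boars, and neither was called. In La vs Lb the value turned negative without TMM factors (-0.11), with upper-quartile factors (-0.21), under limma (-0.27 with 1 added to FPKM) and without Lb replicate 3 (-0.10). Ha vs Hb gave -0.70 without TMM factors, where the median of all genes was -0.32. In FPKM the Ha libraries (25.9, 26.6 and 25.6) lay above the Hb libraries (11.2, 12.3 and 19), and limma gave -0.87 with 1 added and -0.91 with 0.1 added, under the fold threshold, where the median of all genes was -0.28 and -0.47. Between breeds the log2 values were 0.15 at 30 days (edgeR adjusted p = 0.182) and 0.62 at 120 days (edgeR adjusted p = 0.161), and the interaction was 0.42 (edgeR adjusted p = 0.375).

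MMP15, or MT2-MMP, is the other membrane-type enzyme, and it differed between the breeds in its change with age. Its CPM was 103, 132 and 59.8 in Ha, 21.9, 14 and 9.69 in Hb, 37.6, 27.4 and 32.1 in La and 30.3, 22.4 and 41.2 in Lb. The Ha libraries were the highest and the Hb libraries the lowest, with no overlap between them, while La and Lb overlapped and lay in between. Ha replicate 3 had the lowest value of its group and still exceeded each La library. MMP15 fell in HZ boars, with a log2 fold change of -2.69 (SE 0.39, edgeR adjusted p = 0.000635), and the value in LC boars was -0.03 (SE 0.23, edgeR adjusted p = 0.911). The interaction was 2.64 (SE 0.48, edgeR adjusted p = 0.0114) and was called in each of the 20 alternatives run, with log2 values from 2.37 to 3.02 and adjusted p from 9.74e-06 to 0.0333. At 30 days MMP15 was lower in LC boars by a log2 fold change of -1.60 (SE 0.27, edgeR adjusted p = 0.00686). At 120 days each Lb library lay above each Hb library, and the log2 fold change of 1.09 (SE 0.34, edgeR adjusted p = 0.0958) was not called by edgeR. DESeq2 called it (log2 1.08, DESeq2 adjusted p = 0.017), and over its alternatives the adjusted p went up to 0.265.

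**Figure D2:**
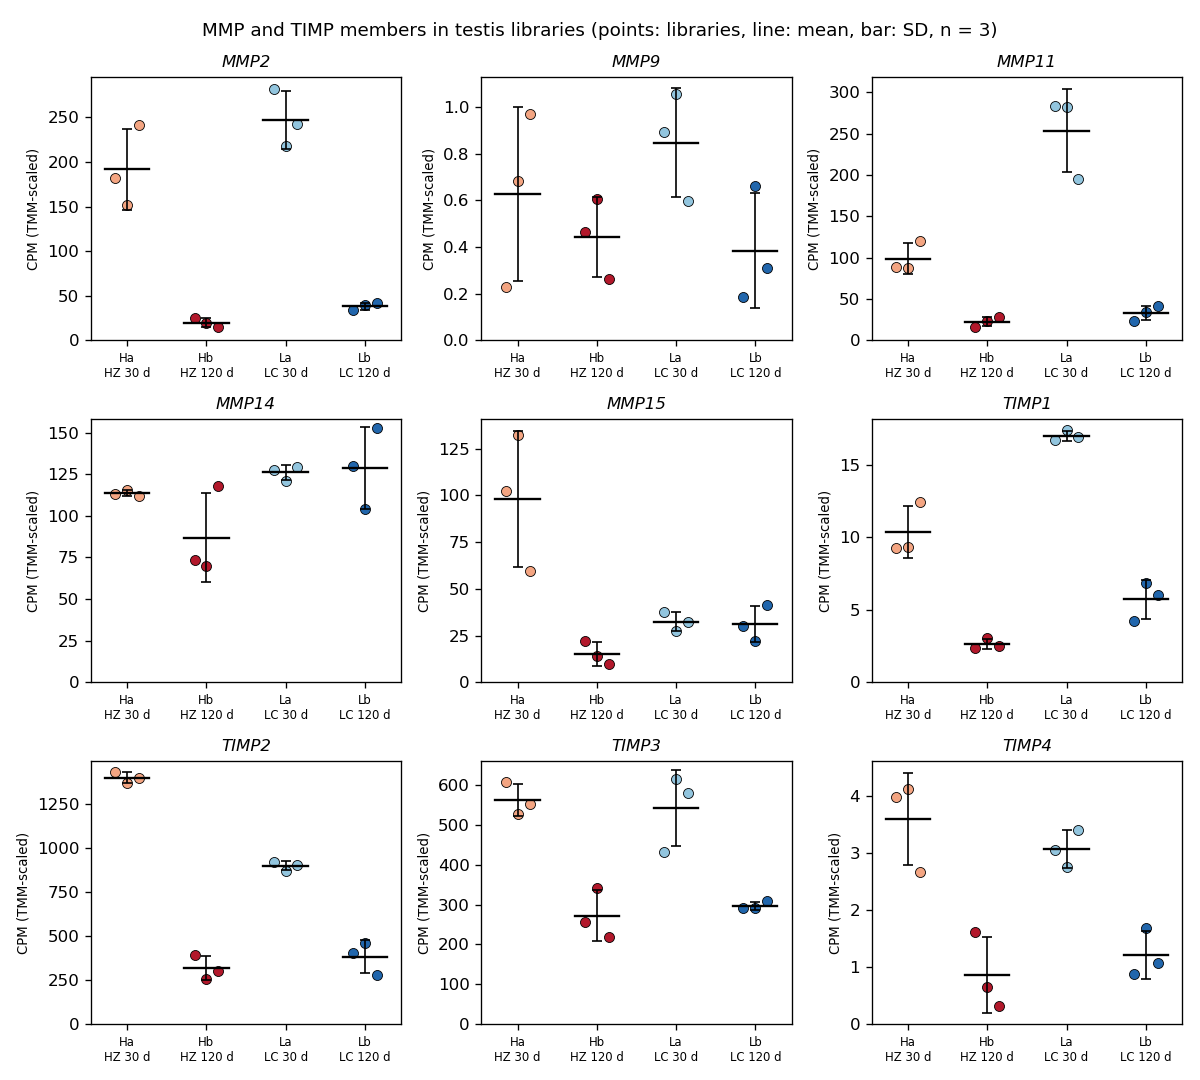
CPM of the 9 genes (y axis, linear, from 0) in each library of Ha, Hb, La and Lb (x axis). Points are libraries, the line is the group mean and the bar is the SD (n = 3); MMP15 stands highest in Ha, and the La libraries of MMP11 lie above those of Ha.

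TIMP1 is a soluble inhibitor that binds the proenzyme of MMP9. Its CPM was 9.25, 9.36 and 12.4 in Ha, 2.38, 3.06 and 2.51 in Hb, 16.7, 17.4 and 16.9 in La and 4.21, 6.87 and 6.06 in Lb. The 4 groups did not overlap at any pairwise comparison, and the order ran from La through Ha and Lb to Hb. TIMP1 fell by a log2 fold change of -1.96 (SE 0.25, edgeR adjusted p = 0.000369) with age in HZ boars and -1.56 (SE 0.22, edgeR adjusted p = 0.000272) in LC boars. Between breeds it was 0.71 (SE 0.15, edgeR adjusted p = 0.0154) at 30 days, below the fold threshold, and 1.15 (SE 0.32, edgeR adjusted p = 0.0778) at 120 days, above the p threshold. In Hb vs Lb it was called under DESeq2 (log2 1.13), in one fit of the 12 libraries (log2 1.10) and under limma on log2(FPKM + 0.1) (log2 1.21). Its interaction was 0.39 (SE 0.31, edgeR adjusted p = 0.481).

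TIMP2 bridges MMP14 and the proenzyme of MMP2 at the cell surface. Its CPM was 1435, 1369.8 and 1398 in Ha, 394, 259.5 and 304 in Hb, 921, 873 and 908 in La and 406, 464 and 279.7 in Lb. Ha was the highest and La next, each apart from the other groups, and Hb and Lb overlapped. TIMP2 fell by a log2 fold change of -2.13 (SE 0.19, edgeR adjusted p = 6.04e-05) with age in HZ boars and -1.22 (SE 0.17, edgeR adjusted p = 0.000263) in LC boars. At 30 days it was -0.64 (SE 0.07, edgeR adjusted p = 0.00188) in LC boars relative to HZ boars, which is below the fold threshold, and at 120 days it was 0.31 (SE 0.21, edgeR adjusted p = 0.387). Its interaction of 0.90 (SE 0.26, edgeR adjusted p = 0.0577) was not called. A call came without TMM factors (log2 1.05), without Hb replicate 1 (1.11) and without Lb replicate 3 (1.10).

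TIMP3 is bound to the matrix and also inhibits ADAM and ADAMTS proteases. Its CPM was 606, 527 and 550.4 in Ha, 256, 342 and 219 in Hb, 433, 614 and 578 in La and 292, 291 and 309 in Lb. The ages did not overlap in either breed, while the breeds overlapped at each age. TIMP3 fell in Ha vs Hb with -1.04 (SE 0.18, edgeR adjusted p = 0.00155). That call was lost under DESeq2 (log2 -0.99) and without Ha replicate 1 (-0.99), Hb replicate 1 (-0.99) or Hb replicate 3 (-0.91), each just under the fold threshold. In La vs Lb it was -0.85 (SE 0.14, edgeR adjusted p = 0.000782), under the fold threshold, and it was called in 4 of 15 alternatives. These were no TMM factors (log2 -1.02, with all genes at a median of -0.16), upper-quartile factors (-1.11, median -0.25) and limma (-1.13 with 1 added to FPKM and -1.14 with 0.1 added). The difference between breeds was -0.05 at 30 days (edgeR adjusted p = 0.809) and 0.17 at 120 days (edgeR adjusted p = 0.613). The interaction of TIMP3 was 0.18 (SE 0.24, edgeR adjusted p = 0.694), so the breeds are not shown to differ in its change with age.

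TIMP4 was the least abundant inhibitor. Its CPM was 3.99, 4.14 and 2.68 in Ha, 1.62, 0.65 and 0.33 in Hb, 3.06, 2.76 and 3.42 in La and 0.879, 1.7 and 1.08 in Lb, from estimated counts between 5 and 104 per library. The ages did not overlap in either breed. TIMP4 fell by a log2 fold change of -2.04 (SE 0.57, edgeR adjusted p = 0.0145) with age in HZ boars and -1.32 (SE 0.34, edgeR adjusted p = 0.00763) in LC boars. Hb replicate 1 was the highest of its group, and without it the value in Ha vs Hb was -2.83. Both calls were lost under limma on log2(FPKM + 1), with -0.49 and -0.33. TIMP4 was at most 0.61 FPKM in any library, so that setting could not give a log2 value past the fold threshold. Both calls held in the other 14 of 15 alternatives. The interaction of TIMP4 was 0.71 (SE 0.67, edgeR adjusted p = 0.558), and 1.52 without Hb replicate 1 (edgeR adjusted p = 0.128, in a range over its alternatives from 0.128 to 0.805).

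In the Sscrofa11.1 annotation, 4 of the 9 genes overlap other genes. TIMP1 (chromosome X, positions 42103251 to 42106289) lies within SYN1, TIMP3 (chromosome 5, positions 12185816 to 12242599) within SYN3 and TIMP4 (chromosome 13, positions 68179803 to 68191199) within SYN2. The span of TIMP2 (chromosome 12, positions 3254794 to 3300835) holds CEP295NL and a tRNA gene. The libraries were strand-specific, but whether counting used the strand is not given in the sources used here, so reads of such pairs cannot be told apart with certainty. The synapsin genes did not fall with age: SYN3 rose, with 1.78 (SE 0.25, edgeR adjusted p = 0.000524) with age in HZ boars and 2.41 (SE 0.27, edgeR adjusted p = 7.46e-05) in LC boars. SYN2 rose in La vs Lb with 1.22 (SE 0.18, edgeR adjusted p = 0.000331), and the value of SYN1 in Ha vs Hb was 0.65 (SE 0.40, edgeR adjusted p = 0.179). CEP295NL had estimated counts of 115, 106 and 122 in Ha and 64.3, 138 and 53 in La, and of 0 in each library of Hb and Lb. TIMP2 also fell with age, with estimated counts per library of 17376 to 37395 at 30 days and 4618 to 9862 at 120 days. SYN2 had estimated counts of 170 to 416 per library, above the 5 to 104 of TIMP4. The part of these overlapping genes in the TIMP counts was not tested. MMP2 (chromosome 6, positions 30059247 to 30087031) and MMP15 (chromosome 6, positions 19890867 to 19912941) share a chromosome, and MMP9 (chromosome 17, positions 48179690 to 48186782), MMP11 (chromosome 14, positions 49907684 to 49917494) and MMP14 (chromosome 7, positions 76174502 to 76185931) lie on others.

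Ratios of FPKM within a library do not depend on library scaling and are given as a description. MMP2:TIMP2 was 0.0507, 0.0451 and 0.0668 in Ha, 0.016, 0.0202 and 0.0123 in Hb, 0.109, 0.0924 and 0.0993 in La and 0.0236, 0.0241 and 0.0393 in Lb. It was lower at 120 days in each breed and higher in LC than in HZ boars at each age, with no overlap in these comparisons. Relative to the mean of Ha, MMP2:TIMP2 was 0.298 in Hb, 1.85 in La and 0.535 in Lb, and with counts 0.455, 2 and 0.774. MMP14:TIMP2 was 0.0263, 0.0287 and 0.0259 in Ha, 0.0399, 0.0593 and 0.0825 in Hb, 0.0415, 0.0429 and 0.0445 in La and 0.0758, 0.0532 and 0.12 in Lb. This ratio was higher at 120 days in each breed, with no overlap between the ages. Relative to the mean of Ha, MMP14:TIMP2 was 2.24 in Hb, 1.59 in La and 3.08 in Lb, and with counts in place of FPKM it was 3.46, 1.73 and 4.48. Summed MMPs over summed TIMPs came to 0.112 ± 0.00511 in Ha, 0.086 ± 0.0191 in Hb, 0.185 ± 0.0113 in La and 0.13 ± 0.0465 in Lb. MMP9:TIMP1 was 0.0179 ± 0.00922, 0.0512 ± 0.0152, 0.0156 ± 0.00404 and 0.02 ± 0.00927 in the same order and rests on few MMP9 reads. TIMP2 made up 89.3 ± 0.331% of TIMP FPKM in Ha, 86 ± 5.01% in Hb, 84.9 ± 2.48% in La and 85.7 ± 3.17% in Lb. The share of TIMP3 was 9.47 ± 0.469%, 13.1 ± 4.79%, 12.5 ± 2.39% and 12.7 ± 2.84%. TIMP1 held 1.13 ± 0.176%, 0.824 ± 0.241%, 2.53 ± 0.0959% and 1.57 ± 0.456%, and TIMP4 less than either.

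**Figure D3:**
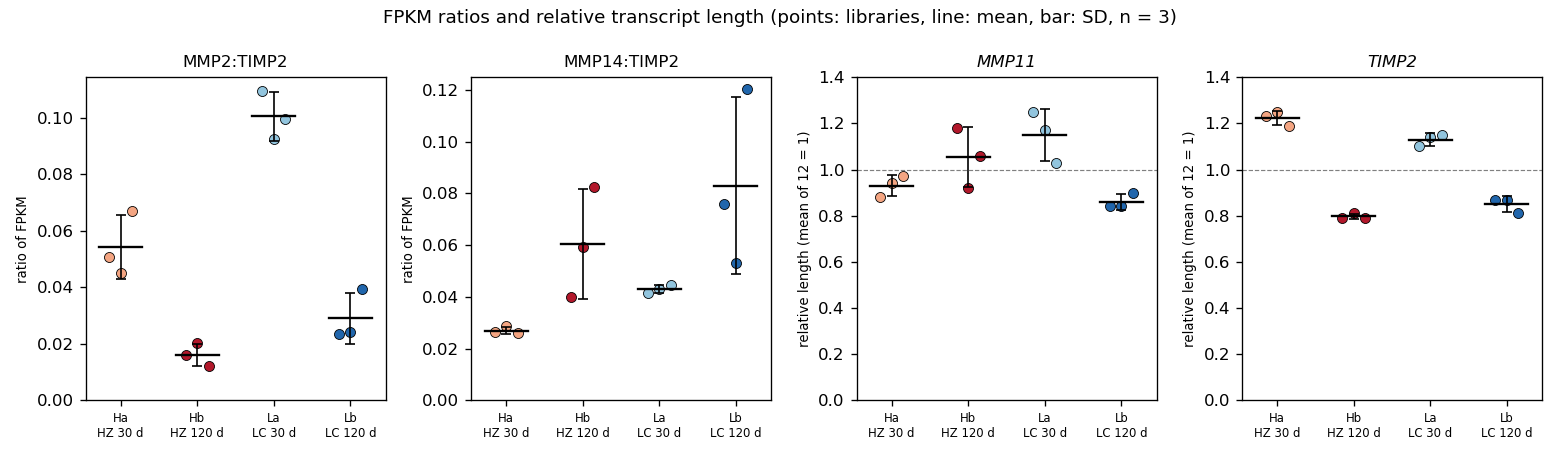
FPKM ratios MMP2:TIMP2 and MMP14:TIMP2 and the relative transcript length of MMP11 and TIMP2 (y axes, linear, from 0) in each library of the 4 groups (x axis). Points are libraries, lines are group means and bars are SD (n = 3); the relative length of TIMP2 is above 1 at 30 days and below 1 at 120 days.

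Other MMP genes were read alongside. Of 19 symbols listed, 15 are in the table, and between 6 and 9 of them had enough counts to be tested in a comparison. Here and in the lists and markers below, numbers that fell, rose or differed count called genes. Of all genes, 23.2% were called lower and 28.2% higher with age in HZ boars, and 20.1% and 27.5% in LC boars. In LC relative to HZ boars, 4.01% were called lower and 3.60% higher at 30 days, and 1.20% and 2.65% at 120 days. In Ha vs Hb, 5 of 6 tested genes fell (MMP16, MMP19, MMP23B, MMP25 and MMP28) and 1 rose (MMP17). There MMP13 did not pass the filter, with counts of 6, 1 and 4 in Ha and 0, 60 and 27 in Hb. The number that rose was 2 without Hb replicate 1 (8 tested) and in one fit of 12 libraries (9 tested). MMP16, a membrane-type enzyme, fell by -2.56 (SE 0.19, edgeR adjusted p = 3.22e-05) in HZ boars and -3.06 (SE 0.31, edgeR adjusted p = 4.64e-05) in LC boars. MMP25 fell by -2.31 (SE 0.44, edgeR adjusted p = 0.0024) and -1.54 (SE 0.40, edgeR adjusted p = 0.00817). Neither call could be made under limma on log2(FPKM + 1), since MMP25 was at most 0.5 FPKM in any library. MMP17 rose, with 1.22 (SE 0.38, edgeR adjusted p = 0.0234) and 1.19 (SE 0.42, edgeR adjusted p = 0.0334), and both calls were lost without TMM factors, with upper-quartile factors and under limma on log2(FPKM + 1) and log2(FPKM + 0.1), and that in LC boars with the replicate block. They were also lost without Ha replicate 1 (1.06), Ha replicate 2 (1.17), Hb replicate 2 (1.18) or Hb replicate 3 (1.12) in HZ boars and without La replicate 1 (1.05), La replicate 3 (1.05) or Lb replicate 1 (0.80) in LC boars. In La vs Lb, 3 of 8 fell and 2 rose, the latter MMP13 and MMP17 (0 under limma on log2(FPKM + 1)), and the number that fell was 5 without Lb replicate 3. MMP13 (at most 0.81 FPKM) and MMP17 (at most 0.46 FPKM) could not be called in either breed with 1 added to FPKM. In Hb vs Lb, 2 of 7 were higher in LC boars, MMP23B with 2.64 (SE 0.46, edgeR adjusted p = 0.0242) and MMP28 with 1.80 (SE 0.32, edgeR adjusted p = 0.0246). MMP23B was not called without Hb replicate 3 (2.57), Lb replicate 2 (2.21) or Lb replicate 3 (2.70), nor MMP28 without Hb replicate 3 (1.66), Lb replicate 1 (1.84), Lb replicate 2 (1.82) or Lb replicate 3 (1.75), and the count was 0 without Hb replicate 3, Lb replicate 2 or Lb replicate 3 and 1 without Lb replicate 1. The count was 3 under DESeq2 and without Hb replicate 1. Under limma on log2(FPKM + 1) it was 1, without MMP28, and with the replicate block 0. In Ha vs La, 0 of 7 were called by edgeR and 0 by DESeq2, while MMP16 passed the p threshold and not the fold threshold, with 0.95 (SE 0.19, edgeR adjusted p = 0.0126). It was the 1 gene at an unadjusted p below 0.05, and edgeR called 1 without La replicate 1 and 2 without Ha replicate 3.

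Genes that activate, block or clear MMPs fell with age more often than they rose. 9 of 16 tested genes of this list were called lower with age in HZ boars and 6 of 16 in LC boars, beside 23.2% and 20.1% of all genes. The medians were -1.92 and -0.94 beside -0.02 and 0.01 for all genes. At an edgeR adjusted p below 0.05, in either direction, there were 9 and 13. In LC boars 8 fell without TMM factors, 10 with upper-quartile factors and 11 under limma on log2(FPKM + 0.1). CD44, a receptor that docks MMP9 at the cell surface, fell by -3.76 (SE 0.40, edgeR adjusted p = 0.000151) and -4.89 (SE 0.29, edgeR adjusted p = 1.82e-06), and it was higher in La than in Ha with 1.96 (SE 0.28, edgeR adjusted p = 0.00404). LRP1, an endocytic receptor that clears MMP complexes, fell by -2.54 (SE 0.26, edgeR adjusted p = 0.000125) and -1.62 (SE 0.16, edgeR adjusted p = 3.91e-05). LCN2, which binds MMP9, fell by -2.89 (SE 0.47, edgeR adjusted p = 0.00114) and -2.47 (SE 0.50, edgeR adjusted p = 0.00228), the latter not called under limma on log2(FPKM + 1). A2M, a plasma protease inhibitor, fell in HZ boars by -2.23 (SE 0.63, edgeR adjusted p = 0.0154), and by -3.37 without Hb replicate 1, and its interaction was 1.46 (SE 0.73, edgeR adjusted p = 0.251). In Ha vs La, 2 of 16 were higher (CD44 and SERPINE2). The call of SERPINE2 there was lost without Ha replicate 1 (0.97), Ha replicate 2 (0.85), La replicate 1 (1.10), La replicate 2 (1.17) or La replicate 3 (1.01). In Hb vs Lb 2 of 15 were higher (SERPINE2 and THBS1), and 0 without Hb replicate 3, Lb replicate 1 or Lb replicate 2 and 1 without Lb replicate 3. It was 3 under DESeq2, 1 under limma on log2(FPKM + 1), without THBS1, and 0 with the replicate block.

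Among substrates of the MMPs, 8 of 14 had a called interaction of breed and age, each above 0, and 5 without Ha replicate 1, Ha replicate 2, La replicate 1, La replicate 2, La replicate 3 or Lb replicate 2. In Ha vs Hb, 13 of 14 were called lower, with a median of -3.00, and in La vs Lb 9 of 14, with a median of -1.34. At an edgeR adjusted p below 0.05 there were 14 in each comparison, so those not called were under the fold threshold. ELN went the other way in La vs Lb, with 0.93 (SE 0.25, edgeR adjusted p = 0.00894), under the fold threshold. There 1 substrate was called higher without La replicate 3, Lb replicate 1 or Lb replicate 3. COL1A1 fell by -4.99 (SE 0.33, edgeR adjusted p = 1.78e-05) in Ha vs Hb, where its FPKM was 27, 39.1 and 24.8 in Ha and 0.9, 0.52 and 0.6 in Hb, by -0.95 (SE 0.13, edgeR adjusted p = 0.000302) in LC boars, which is under the fold threshold, and was higher in Lb than in Hb by 4.53 (SE 0.26, edgeR adjusted p = 0.000951). COL4A1 fell by -3.73 (SE 0.28, edgeR adjusted p = 2.92e-05) in HZ boars and, again under the fold threshold, by -0.95 (SE 0.13, edgeR adjusted p = 0.000222) in LC boars, and was higher in Lb than in Hb by 2.85 (SE 0.24, edgeR adjusted p = 0.0042). NID1, of the basement membrane, fell by -2.96 (SE 0.34, edgeR adjusted p = 0.000228) and -2.03 (SE 0.12, edgeR adjusted p = 2.24e-06), and DCN, a small proteoglycan, by -2.11 (SE 0.17, edgeR adjusted p = 4.19e-05) and -1.91 (SE 0.10, edgeR adjusted p = 1.08e-06). In Hb vs Lb, 8 of 14 were higher in LC boars, and 4 without Hb replicate 3, Lb replicate 1, Lb replicate 2 or Lb replicate 3. For Ha vs La, 0 of 14 were called by edgeR and 0 by DESeq2, with 8 at an unadjusted p below 0.05 and 6 at an edgeR adjusted p below 0.05, the latter under the fold threshold.

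Of the proteases that TIMP3 inhibits, 3 of 5 were called lower in Ha vs Hb (ADAMTS1, ADAMTS4 and ADAMTS5) and 4 of 5 in La vs Lb, these and ADAM10. At an edgeR adjusted p below 0.05 there were 4 and 5, each lower with age. ADAM10 was just under the fold threshold in HZ boars, with -0.98 (SE 0.21, edgeR adjusted p = 0.00436), and its interaction was -0.32 (edgeR adjusted p = 0.549). The call of ADAMTS4 in La vs Lb was lost without La replicate 1 (-1.24), La replicate 2 (-1.06), La replicate 3 (-1.13), Lb replicate 1 (-0.96) or Lb replicate 3 (-0.84), and under limma on log2(FPKM + 1). ADAMTS1 fell by -2.09 (SE 0.21, edgeR adjusted p = 0.00012) and -1.27 (SE 0.15, edgeR adjusted p = 9.43e-05). ADAMTS5, an aggrecan-cutting enzyme, fell by -1.55 (SE 0.30, edgeR adjusted p = 0.00262) and -1.85 (SE 0.23, edgeR adjusted p = 0.00014). No breed comparison gave a call in this list: edgeR and DESeq2 called 0 of 5 at 30 and at 120 days, with 3 and 1 at an unadjusted p below 0.05. At an edgeR adjusted p below 0.05 there were 2 and 0, under the fold threshold.

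Markers of the cell types of the testis changed with age in the same libraries. The 10 peritubular and stromal markers summed to 976, 949.8 and 978 in Ha, 102, 101 and 66.5 in Hb, 1341, 1224 and 1512 in La and 530.1, 516 and 562 in Lb FPKM, and the gene with the highest mean was COL3A1 in Ha, La and Lb and ACTA2 in Hb. Among them, 8 of 10 fell with age in HZ boars and 5 of 10 in LC boars, where 1 rose, and 5 of 10 were higher in Lb than in Hb (2 without Hb replicate 3, Lb replicate 1, Lb replicate 2 or Lb replicate 3). The 7 Leydig cell markers summed to 5487, 5009 and 4883 in Ha, 2180.0, 189 and 128 in Hb, 7771, 5341 and 6281 in La and 2708, 4057 and 1712 in Lb FPKM, with the highest mean for CYP17A1 in Ha and La and INSL3 in Hb and Lb, though HSD17B3 was above INSL3 in Hb replicate 3. Hb replicate 1 stood far above the other Hb libraries in the Leydig sum. 4 of 7 Leydig markers fell with age in HZ boars and 5 of 7 in LC boars, the latter 3 in one fit of 12 libraries. Endothelial markers, of which VWF was the highest in each library, summed to 93.7, 94.5 and 84.3 in Ha, 13.9, 26.7 and 15.7 in Hb, 98, 78.3 and 91 in La and 28.2, 45.7 and 28.6 in Lb FPKM. 5 of 5 of them fell with age in HZ boars and 3 of 5 in LC boars. Macrophage markers summed to 40.3, 32.7 and 32.6 in Ha, 3.49, 4.56 and 2.24 in Hb, 38.3, 33 and 36.3 in La and 5.91, 9.64 and 9.91 in Lb FPKM, with the highest mean for CD163 in Ha and CSF1R in Hb, La and Lb. 5 of 5 of them fell with age in HZ boars and 4 of 5 in LC boars. Sertoli cell markers summed to 782, 751 and 973 in Ha, 181, 288 and 216 in Hb, 1508, 1770.0 and 1632 in La and 311, 385 and 370.5 in Lb FPKM, with the highest mean for INHA in Ha and La and CLDN11 in Hb and Lb; in Ha replicates 1 and 2 CLDN11 was above INHA. 4 of 8 of them fell in each breed with age. The sums of La lay above those of Ha, while 3 of 8 were called higher: AMH with 1.96 (SE 0.28, edgeR adjusted p = 0.00351), INHA with 1.51 (SE 0.19, edgeR adjusted p = 0.00235) and FSHR with 1.22 (SE 0.15, edgeR adjusted p = 0.00246). The value of CLDN11 there was -0.19 (SE 0.12, edgeR adjusted p = 0.287).

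Spermatid and spermatocyte markers moved the other way. Spermatid markers, among which PRM1 had the highest mean in each group, summed to 5.72, 7.02 and 6.73 in Ha, 5280.0, 5793 and 7667 in Hb, 10.8, 9.39 and 4.53 in La and 3909, 3342 and 3575 in Lb FPKM, and 9 of 9 tested rose in each breed. Spermatocyte markers summed to 10.5, 11 and 6.5 in Ha, 151, 157 and 134 in Hb, 5.4, 4.76 and 4.41 in La and 116, 110.3 and 124 in Lb FPKM, with the highest mean for PIWIL1 in Ha, Hb and Lb and MEIOB in La, and 8 of 8 rose in each breed. At 30 days 4 of 8 were called lower in La (HORMAD1 -1.69, PIWIL1 -1.21, SYCP1 -1.38 and SYCP2 -1.29), beside 4.01% of all genes. So was 1 of 10 spermatogonial markers tested, DAZL (-1.66). Spermatogonial markers summed to 76, 73.3 and 59.5 in Ha, 177, 182 and 173 in Hb, 41.2, 40.6 and 43.9 in La and 155, 139.8 and 162 in Lb FPKM. The highest mean was that of DAZL in Ha, DDX4 in Hb and Lb and ZBTB16 in La, and without DDX4 the sums were 69.3, 65.5 and 52.9 in Ha, 31.6, 48.2 and 35.4 in Hb, 37.2, 36.6 and 38.7 in La and 45.5, 43 and 46.5 in Lb. Of these markers, 6 of 11 fell and 3 rose in HZ boars, and 5 fell and 4 rose in LC boars (3 without La replicate 1, of those falling). Under limma on log2(FPKM + 1), 1 rose in HZ boars and 2 fell in LC boars. 2 of 3 neutrophil markers tested fell in each breed, and in HZ boars 0 without Ha replicate 3 or Hb replicate 3 and 1 without Hb replicate 1. It was 1 there under limma on log2(FPKM + 1), with the replicate block and in one fit of 12 libraries. No marker of these lists was at 0 in each library of a group. The part of these cell types in the values of the 9 genes was not tested.

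The genes most like each of the 9 were taken by the root mean square difference of centred log2 CPM over the 12 libraries, among 15133 genes. For MMP2 they were SH3PXD2A (0.19), PIEZO2 (0.20) and GIMAP4 (0.23). For MMP11 they were NRG1 (0.27), ZDHHC2 (0.28) and CHST3 (0.30), and for MMP14 HSD11B1L (0.18), PYCR1 (0.18) and GPATCH2L (0.19). The profile of MMP15, high in Ha and low in Hb, had its nearest genes farther off, at ADAMTSL2 (0.40), TFPI (0.45) and PPIF (0.46). Nearest to TIMP1 were ACVR1 (0.17), SFRP1 (0.18) and FXYD5 (0.19), to TIMP2 LRP3 (0.21), RAB3D (0.21) and ACAD11 (0.21), to TIMP3 WDSUB1 (0.12), NUAK1 (0.13) and ZNF2 (0.13) and to TIMP4 RETSAT (0.23), FDX1 (0.27) and CMBL (0.27). MMP9 was nearest to ATP6V0A4 (0.24), EPGN (0.29) and DNTT (0.35).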

How the data were processed

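Testis libraries of 12 boars, depleted of ribosomal RNA and strand-specific, were sequenced for the study by the company Gene Denovo Biotechnology. Per the submitters' processing notes and the study's methods, reads were filtered with fastp 0.18.0, ribosomal reads were removed with Bowtie2 2.2.8, the rest were mapped to Sus scrofa 11.1 with HISAT2 2.1.0 and transcripts were assembled with StringTie 1.3.4. The authors deposited an estimated count per gene, not normalized, and the tool that made it is not given in the sources used here. The authors also deposited FPKM per gene, rounded to 2 decimals. The lncRNA files were not used here. Each column was matched to its library by name.

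Estimated counts were rounded to whole numbers. For each pairwise comparison the 6 libraries were filtered with filterByExpr (minimum count 10), scaled with TMM and tested with edgeR 4.0.16 in R 4.3.3, over the whole table, with Benjamini-Hochberg adjustment. The interaction used the 12 libraries. The SE is the absolute log2 fold change over the square root of the F statistic. The script was tested on simulated data. The boars are separate animals, so the spread within a group is between boars. The p values rest on that spread as modelled across genes.

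Alternatives were DESeq2 1.42.0, no TMM factors, upper-quartile factors, no filter, a floor of 10 counts per library within a group, limma 3.58.1 on log2(FPKM + 1) and log2(FPKM + 0.1), each library left out in turn, the replicate number as a block, and the 12 libraries in one fit. With 1 added, a gene below 1 FPKM in every library cannot pass the fold threshold in a pairwise comparison. The loss of a call of such a gene there was fixed in advance. Named are the 9 genes, genes of the lists called in at least 1 comparison (at most 12 per list, by smallest adjusted p), genes overlapping the 9, and for each of the 9 the 3 most alike genes. The lists were other MMP genes, activators, inhibitors and clearance, substrates, proteases inhibited by TIMP3, and markers of spermatogonia, spermatocytes, spermatids, Sertoli cells, Leydig cells, peritubular and stromal cells, endothelial cells, macrophages and neutrophils. The members and lists were chosen with earlier results of these data known. Computations used Python 3.11.15, numpy 2.4.6, pandas 2.3.3 and matplotlib 3.10.9.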

Additional observations from a re-analysis of the deposited data

Results flagged for a closer look

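The change with age differed between the breeds, by the edgeR test of the interaction, for MMP15 and for genes of the lists read alongside it. For MMP15 the log2 interaction was 2.64: CPM was 103, 132 and 59.8 in Ha and 21.9, 14 and 9.69 in Hb, and 37.6, 27.4 and 32.1 in La and 30.3, 22.4 and 41.2 in Lb. The other MMP genes with a called interaction were MMP23B at 2.48 and MMP28 at 2.06, and the call of MMP28 was lost without Ha replicate 1 (1.91). Among regulators it was THBS1 at 2.53, where the number called above 0 was 2 without Hb replicate 1 or Hb replicate 2, and limma on log2(FPKM + 1) also called 1 below 0. Among substrates it was COL1A1 at 4.02, COL1A2 at 2.83, COL3A1 at 3.19, COL4A1 at 2.77, COL4A2 at 2.52, FN1 at 1.75, LAMA2 at 1.07 and ELN at 4.13. The call of COL1A2 was lost without Ha replicate 1 (2.93), Ha replicate 2 (2.79), Hb replicate 3 (2.53), La replicate 1 (2.79), La replicate 2 (2.79), La replicate 3 (3.05), Lb replicate 1 (2.77) or Lb replicate 2 (2.74). That of COL3A1 was lost without Ha replicate 1 (3.18), Ha replicate 2 (3.21), La replicate 1 (3.21), La replicate 2 (3.17), La replicate 3 (3.31), Lb replicate 1 (3.09), Lb replicate 2 (3.16) or Lb replicate 3 (3.32), and that of LAMA2 without Ha replicate 1 (1.19), Ha replicate 2 (1.15), Ha replicate 3 (0.97), Hb replicate 1 (0.99), Hb replicate 3 (1.14), La replicate 1 (1.08), La replicate 2 (0.98), La replicate 3 (1.25), Lb replicate 2 (1.12) or Lb replicate 3 (0.91). Without Hb replicate 1 the interactions of COL1A2, COL3A1 and ELN were 4.10, 4.65 and 4.80. The peritubular and stromal markers, which share 4 genes with the substrates, summed to lower values in Hb than in Lb. Of these markers 5 of 10 had a called interaction, each above 0, beside 3.51% of all genes. So had 2 of 11 spermatogonial, 1 of 5 endothelial and 1 of 5 macrophage markers. Among spermatid markers 2 of 10 were called below 0, beside 1.62% of all genes. The other marker lists had 0 called. The part of these cell types in the interactions above was not tested.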

How the results depend on the processing

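Over the alternatives, 666 of 704 log2 values of the 9 genes kept their direction and side of the thresholds, 15 lost a call, 13 gained one and 10 changed sign. The losses include those of TIMP4 under limma on log2(FPKM + 1), where its low FPKM allowed no call. The alternatives for list genes and for list counts were added after the data were seen. They were run for the called values of list genes, so no gain could be counted, and of 1254 values under these alternatives 112 lost the call. The number of the 9 genes called in Ha vs Hb and La vs Lb stayed within 1.5 times. In Ha vs La it was 1 under limma on log2(FPKM + 1). In Hb vs Lb, where 1 was called, it was 2 under DESeq2 and under limma on log2(FPKM + 0.1), 0 under limma on log2(FPKM + 1) and 0 to 1 when 1 library was left out. For the interaction it was 2 without TMM factors and 1 to 2 when 1 library was left out. The causes were not tested.

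Sign changes were in values that were not called. MMP14 in La vs Lb was -0.11 without TMM factors, -0.21 with upper-quartile factors, -0.27 and -0.28 under limma and -0.10 to 0.18 when 1 library was left out (-0.10 without Lb replicate 3). MMP15 in La vs Lb was -0.29 to 0.15 when 1 library was left out (0.08 without La replicate 1, 0.00 without Lb replicate 1, 0.15 without Lb replicate 2). TIMP3 in Ha vs La was -0.14 to 0.10 when 1 library was left out, with 0.01 without Ha replicate 1 and 0.10 without La replicate 1.

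With counts in place of FPKM, relative to Ha, MMP2:TIMP2 moved from 0.298 to 0.455 in Hb and from 0.535 to 0.774 in Lb. MMP14:TIMP2 moved to 3.46 in Hb, 1.73 in La and 4.48 in Lb. Summed MMPs over summed TIMPs moved to 0.972 in Hb and 1.78 in La, and the TIMP2 share to 0.756 in Hb, 0.871 in La and 0.778 in Lb. The relative length of TIMP2 moves with these.

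The number of all genes called in Hb vs Lb was 628, and 1176 under DESeq2, 1258 in one fit of 12 libraries and 97 to 1029 when 1 library was left out. In Ha vs La it was 1192, and 507 under limma on log2(FPKM + 1). For the interaction it was 890, and 1364 under DESeq2, 1365 under limma on log2(FPKM + 0.1) and 437 to 1242 when 1 library was left out.

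Correlations of deviations of same-numbered libraries ran from -0.02 to 0.05 over 12 pairs. Those of other pairs ran from -0.15 (Hb replicate 1 with Lb replicate 3) to 0.12 (Hb replicate 2 with Lb replicate 3). Such values cannot exclude a shared origin of same-numbered libraries, and the labels name none. With the replicate block, 0 of the 9 genes were called in Hb vs Lb, where edgeR called 154 of all genes, against 628 without it, and the other member counts stayed within 1.5 times. The block also left, in Hb vs Lb, 0 of 7 other MMP genes and 0 of 15 regulators called, where 2 of each were called without it, and 6 of 14 substrates in place of 8. In La vs Lb, 1 other MMP gene rose in place of 2, since MMP17 lost its call. The values of MMP9 rest on few counts, 4 to 25 per library, as do those of TIMP4, with 5 to 104.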
